A study of Bos taurus with 6 samples.

Results

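In bovine longissimus muscle, 190 of the 5288 transcript rows that the authors called different between an embryonic and an adult stage were higher in the embryo and carried no KEGG pathway entry. The members were selected on the values described here. A member had an embryonic FPKM of at least 2, an embryonic FPKM at least 2 times the adult FPKM, and an empty KEGG field in the deposited table. FPKM counts the fragments of a transcript, corrected for the length of its exons and for how many fragments the library mapped. Of all rows, 512 (9.68%) were at least 2 times higher in the embryo, and 307 (5.81%) also reached the embryonic minimum. A further 4776 rows (90.3%) were at least 2 times higher in the adult. Of the 307 rows, 204 had an empty KEGG field, and 14 of these were left out by symbol (collagens, histones with HIST symbols, solute carriers and a short set of other developmental genes). The remaining 190 rows carried 186 symbols. Their direction was set by this rule, so nothing is read from it. An empty KEGG field was no mark of embryonic rows, since 66.4% of the 307 rows and 65.9% of all rows had none.

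The tissue came from Qinchuan cattle, a Chinese beef breed, with 3 embryos taken at 90 days after fertilization and 3 adults taken at 24 months of age. The sex of the animals is not given in the sources used here. Ribosomal RNA was removed and paired-end libraries that keep the strand were sequenced, although the molecule is labelled as polyA RNA. The table holds 1 FPKM value per stage, so there is no replicate spread, no test between the stages was possible, and the fragment number behind each value is unknown. Values are therefore set side by side as descriptions of the combined libraries of each stage. In whole muscle, fewer cells of a type and less RNA per cell cannot be told apart.

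At this stage of gestation, myoblasts divide and fuse into fibres while connective tissue cells lay down the matrix around them. Adult muscle consists mainly of large contractile fibres whose RNA is rich in sarcomere and mitochondrial transcripts. KEGG draws mainly metabolic, signalling and disease pathways, so many matrix proteins, transcription factors, chromatin proteins and adaptors have no entry there.

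Values of the 2 stages were also compared under other scalings. Total FPKM over all rows was 70750 in the embryo and 674416 in the adult, a 9.53-fold difference, and the median of 68 cytosolic ribosomal protein rows was 5.08-fold higher in the adult. Setting the totals equal lowers every log2 ratio of adult over embryo by 3.25, and centring on the ribosomal rows lowers it by 2.35. Both shifts come from called rows, most of which were higher in the adult, so their size follows in part from the calling and they do not show which scale is right. The paper also reports that a smaller share of mapped reads lay in exons, and a larger share in introns, in embryonic than in adult samples. The part of this difference in the 2 shifts was not tested. No member can change direction under either scaling, whereas a row higher in the adult can. The median log2 ratio over all rows above 0 in both stages was 2.71 as deposited.

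Most members were of low to moderate abundance. The median embryonic FPKM was 6.43 and the median adult FPKM 1.30, and 80 members lay under 1 FPKM in the adult. In the embryo 79 members lay under 5 FPKM, 46 between 5 and 10, and 65 at 10 or more. The 7 members over 100 FPKM made up 31.6% of the embryonic FPKM sum of the members, and 5 of these 7 were histone rows. Members accounted for 4.30% of the embryonic and 0.106% of the adult FPKM total of the table. For the 185 members above 0 in both stages the median log2 ratio of adult over embryo was -2.00, with quartiles of -2.97 and -1.49 and a range from -6.74 to -1.03. Of these 185, 93 were at least 4-fold higher in the embryo, 45 at least 8-fold, and 15 at least 16-fold. Embryonic rows that did have a KEGG entry, from which no symbol was left out, had a median of -2.22.

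**Figure D1:**
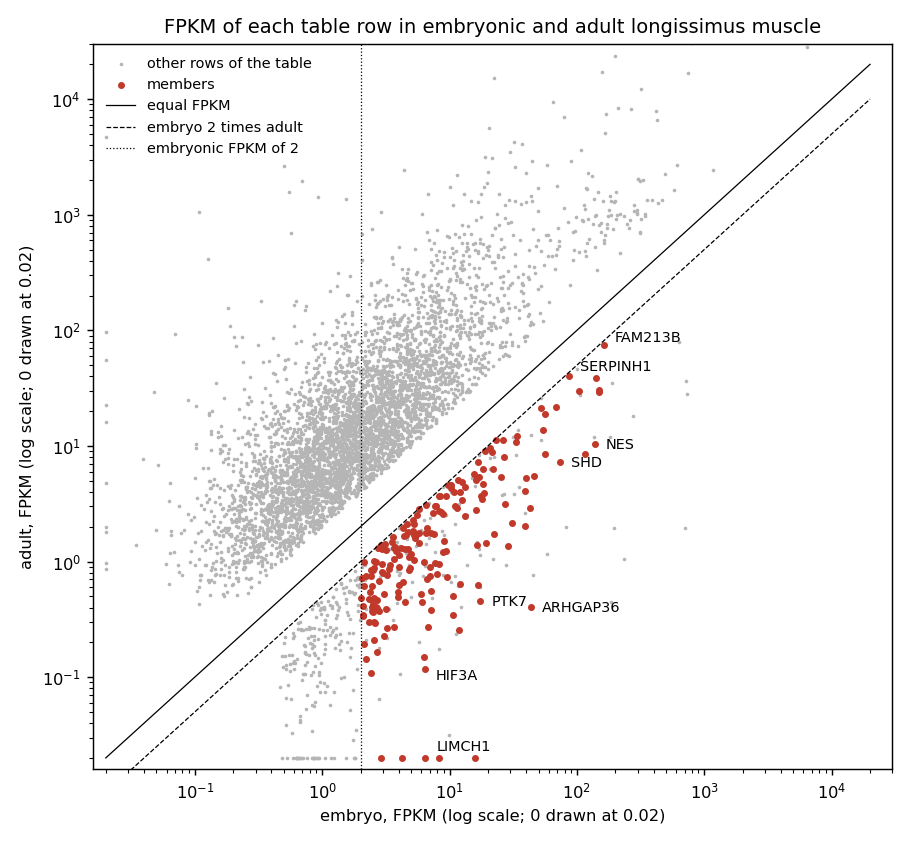
Embryonic FPKM (horizontal, log scale) and adult FPKM (vertical, log scale) of all 5288 rows, with the 190 members in red and the other rows in grey, and values of 0 drawn at 0.02. Members lie to the right of an embryonic FPKM of 2 and below the dashed line of a 2-fold difference, where the rule put them, and the 5 red points on the lower edge are the members listed at 0 in the adult.

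NES, ARHGAP36 and HIF3A are the members given as markers of the set, a choice made from the same FPKM values. NES encodes nestin, an intermediate filament protein of neural and myogenic progenitors. It stood at 139 FPKM in the embryo against 10.4 FPKM in the adult, a 13.3-fold difference, and lies on chromosome 3 of the bosTau7 genome from 14208424. ARHGAP36 is a protein known from mouse work to promote Hedgehog signalling by blocking protein kinase A. With 43.5 FPKM against 0.408 FPKM it had the widest ratio of all members above 0 in both stages, 107-fold. Its locus on chromosome X runs from 14981726 to 15013244. HIF3A, an alpha subunit of the hypoxia-inducible factors with forms that can restrain the other subunits, was much less abundant, at 6.40 FPKM against 0.117 FPKM, a 54.9-fold difference. It lies on chromosome 18 from 53991369 to 54022923.

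Collagen processing genes ranged from abundant to scarce among the members. This list and those below were composed with earlier results known, so their counts describe the chosen symbols and no theme. Over all rows, 9.68% were at least 2 times higher in the embryo. Of 50 listed symbols, 23 had a row, 17 rows were higher in the embryo, 6 in the adult, and 12 were members. The median log2 ratio of the 23 rows was -1.66. SERPINH1, the collagen chaperone of the endoplasmic reticulum also known as HSP47, was at 86.7 FPKM in the embryo and 40.0 FPKM in the adult. PCOLCE, which enhances the removal of the procollagen C-propeptide, was at 68.6 and 21.7 FPKM. These 2 genes had the highest adult levels among the members of the list, and their ratios were 2.17-fold and 3.16-fold. FKBP9, a prolyl isomerase of the endoplasmic reticulum, was at 34.1 and 12.2 FPKM, and RCN3, a calcium-binding protein of the same compartment, was at 17.8 and 3.67 FPKM. LOXL1, a lysyl oxidase-like enzyme that cross-links elastic fibres, was at 10.7 and 4.03 FPKM, and LEPRE1, a prolyl 3-hydroxylase named P3H1 in RefSeq, was at 10.2 and 4.57 FPKM. The widest ratio among the members of this list belonged to ADAMTS7, a secreted metalloprotease, at 2.71 FPKM against 0.165 FPKM, or 16.4-fold. Of the 6 rows higher in the adult, 2 stayed so under both scalings.

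Elastic fibre and matrix glycoprotein genes had 25 rows for 55 listed symbols, 17 of them higher in the embryo, 8 in the adult and 12 members, with a median log2 ratio of -1.88. EMILIN2, a glycoprotein of the elastin interface, reached 29.0 FPKM in the embryo against 1.36 FPKM in the adult, or 21.3-fold. Its relative EMILIN1 was at 11.4 and 2.89 FPKM, so the difference was 3.95-fold there. TGFBI, an adhesive matrix protein induced by TGF-beta, was at 26.8 and 7.99 FPKM. Among the olfactomedin-like glycoproteins, OLFML2A was at 22.5 FPKM against 1.73 FPKM, while OLFML3 was at 13.2 against 4.41 FPKM and OLFML2B at 4.70 against 1.28 FPKM. All 3 were members, with ratios of 13.0-fold, 2.99-fold and 3.67-fold. The secreted C1QTNF3 was at 18.3 and 6.29 FPKM, and ISLR, a secreted protein with leucine-rich repeats, at 13.1 and 2.48 FPKM. Of the 8 rows of the list that were higher in the adult, 3 remained so under both scalings.

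Growth factors that bind heparin, IGF binding proteins and glypicans were represented by 13 rows, 8 higher in the embryo and 5 in the adult, with 6 members and a median log2 ratio of -2.23. GPC3, a cell surface heparan sulfate proteoglycan whose human gene is mutated in an overgrowth syndrome, was at 30.9 FPKM in the embryo and 2.17 FPKM in the adult. The related heparin-binding cytokines midkine and pleiotrophin were both members. Midkine, listed under the symbol BMK, was at 19.4 against 1.43 FPKM, and pleiotrophin (PTN) at 16.2 against 2.81 FPKM. IGFBP4 was the more abundant of the IGF binding protein members in both stages, at 25.5 and 5.42 FPKM. IGFBP2 had the wider ratio, with 10.6 against 0.507 FPKM, or 20.9-fold. ENHO, which encodes the secreted peptide adropin and was placed in the list without being of these families, was at 11.0 and 3.02 FPKM. Of the 5 rows higher in the adult, 2 stayed so after ribosomal centring and 0 after equal totals.

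The list of surface receptors and adhesion molecules, 29 symbols chosen with results known and no census of such genes, had 14 rows, 13 of them higher in the embryo and 11 members, with a median log2 ratio of -2.19. PCDHGC3, a gamma protocadherin, had 2 rows at the same locus, at 12.6 against 4.86 FPKM and at 2.77 against 0.674 FPKM, both members. PTPRD, a receptor tyrosine phosphatase, was at 4.27 and 0.661 FPKM. GPR124, an adhesion receptor that acts in Wnt signalling of brain endothelium in the mouse, was at 5.21 and 1.03 FPKM. The remaining abundant members of the list are known from blood vessels. PLVAP, which forms the diaphragms of endothelial fenestrae and caveolae, was at 8.95 against 1.20 FPKM, CSPG4 (the pericyte proteoglycan NG2) at 8.59 against 2.69 FPKM, and CD248 (endosialin) at 5.27 against 1.71 FPKM. The single row of the list that was higher in the adult changed direction under both scalings.

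As deposited, most other vascular markers were higher in the adult. Of 11 endothelial symbols 6 had a row, and PLVAP alone was higher in the embryo as deposited. The 6 rows summed to 25.1 FPKM in the embryo and 53.8 FPKM in the adult. Of the other 5, namely VWF, TEK, KDR, ESAM and EMCN, the first 4 became higher in the embryo after ribosomal centring, and EMCN did so after equal totals. Of 9 pericyte symbols 4 had a row, summing to 14.9 FPKM in the embryo and 46.6 FPKM in the adult. RGS5, at 0.170 against 26.0 FPKM, and ABCC9, at 0.873 against 16.2 FPKM, were higher in the adult under each scaling, opposite to CSPG4 and CD248. For fibroblasts of muscle 3 of 8 symbols had a row, summing to 18.0 and 58.8 FPKM, of which OSR1 was higher in the embryo and PDGFRA and MFAP5 became so under both scalings. Muscle fibre symbols had 5 rows, all higher in the adult under each scaling, with a sum of 936 FPKM in the embryo and 34500 FPKM in the adult. TNNI2, the fast skeletal troponin I, was at 746 FPKM in the embryo and made up most of that sum. The other embryonic values were 169 FPKM for CKM, 20.4 and 0 FPKM for the TNNT3 rows, and 0.450 FPKM for MYH7. Of 7 epidermal symbols only KRT4, a keratin of stratified epithelia, had a row, at 2.53 against 0.364 FPKM and a member. A more abundant member outside the marker lists, ENSBTAG00000037791, is described as keratin-like and was at 39.3 against 4.11 FPKM. None of 8 neuronal symbols had a row, although a symbol without a row may have been unchanged rather than absent. The part of cell type makeup in the members' values was not tested.

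In the list of transcription factors and cofactors 7 of 13 rows were higher in the embryo, 6 of them members. JDP2, a dimer partner of the AP-1 factors, was the most abundant member of this list at 6.63 FPKM against 1.94 FPKM. CITED1 and CITED4, coactivators that bind CBP and p300, were at 5.32 against 1.59 FPKM and at 2.44 against 0.615 FPKM. GLIS2, a zinc finger factor of the GLI-similar family, was at 4.47 against 0.450 FPKM, and ZNF536, a zinc finger repressor of neuronal differentiation, at 2.56 against 0.208 FPKM. Their ratios of 9.94-fold and 12.3-fold were the widest of the list's members. NFATC4, a factor controlled by calcineurin, stood just above the minimum with 2.01 against 0.481 FPKM. The median log2 ratio of the list was -1.75, and of its 6 rows higher in the adult 2 stayed so after ribosomal centring and 1 after equal totals.

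The hypoxia pathway gave a different picture around HIF3A. Of its 8 rows, 2 were higher in the embryo, HIF3A and CITED4, both members. The other 6 were higher in the adult and the median log2 ratio was 2.63, close to the 2.71 of all rows. Of these 6, 4 stayed higher in the adult under each of the scalings. They include EPAS1, the alpha subunit of HIF-2, at 3.80 FPKM in the embryo and 36.8 FPKM in the adult, which is just above equality after equal totals. EGLN1, the main prolyl hydroxylase that marks the alpha subunits for degradation, was at 14.8 and 163 FPKM.

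Muscle progenitor and myogenic regulators were split by direction, with 7 rows higher in the embryo and 8 in the adult, 6 members and a median log2 ratio of 1.16. Besides NES, the members of the list lay under 10 FPKM in the embryo. SIX5, a homeobox factor, was at 7.71 against 0.968 FPKM, and HEYL, a repressor downstream of Notch, at 6.55 against 1.78 FPKM. HES6, a HES family member that favours differentiation of myoblasts, was at 4.92 against 1.11 FPKM. LIX1 was at 4.12 against 1.31 FPKM, and MSC (musculin), a basic helix-loop-helix repressor, at 3.90 against 0.545 FPKM. MYOG, the myogenic differentiation factor, and MYF6, the factor of mature fibres, were higher in the adult as deposited, at 19.01 against 48.6 FPKM and at 8.58 against 325 FPKM in the embryo and the adult. MYOG changes direction under both scalings and MYF6 under neither.

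The list of actin regulators, signalling regulators and adaptors, also chosen with results known, had 13 rows. Of these, 10 were higher in the embryo, 3 in the adult and 9 were members, with a median log2 ratio of -1.67. Beside ARHGAP36, SHD, an adaptor with an SH2 domain, was at 74.1 FPKM in the embryo and 7.32 FPKM in the adult, or 10.1-fold, and was among the 12 most abundant members. NRK, an X-linked kinase of the germinal centre kinase family, was at 42.4 against 2.88 FPKM. FSCN1, which bundles actin in filopodia, was at 27.2 against 3.17 FPKM, and the tetraspanin TSPAN9 at 18.2 against 4.64 FPKM. PDLIM4, a PDZ and LIM domain protein of the actin cytoskeleton, was at 16.8 against 7.23 FPKM. Summed over the 13 rows the list reached 249 FPKM in the embryo and 49.9 FPKM in the adult.

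The list of chromatin proteins had 11 rows, 8 higher in the embryo, 3 in the adult and 7 members, and a median log2 ratio of -2.09. BRD3, a reader of acetylated histones, was the most abundant at 17.8 against 3.46 FPKM. CBX6 and CBX2 are chromobox subunits of Polycomb repressive complex 1, at 5.52 against 2.54 FPKM and at 2.56 against 0.298 FPKM. PHF19, which brings Polycomb repressive complex 2 to chromatin, was at 4.96 against 1.17 FPKM. CDCA7, which acts with the remodeller HELLS, was at 2.32 against 0.298 FPKM, and BCL9, a coactivator of beta-catenin, at 2.11 against 0.338 FPKM. The histone chaperone ASF1B was at 2.08 against 0.342 FPKM. Of the 3 rows higher in the adult, 2 kept this under each scaling.

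RNA-binding proteins of development had 5 rows, 4 higher in the embryo and all 4 members, with a median log2 ratio of -1.84. HNRPA0, a heterogeneous nuclear ribonucleoprotein, was at 16.0 against 5.06 FPKM. CSDC2, a cold shock domain protein, was at 10.6 against 0.348 FPKM, a ratio of 30.4-fold that is among the 12 widest. IGF2BP2, which binds and stabilizes mRNAs that include IGF2, was at 2.93 against 0.818 FPKM, and MEX3A, a KH domain protein, at 2.22 against 0.144 FPKM. The lists of imprinted genes and of the armadillo, MAGE and BEX/TCEAL families were small. MEST, which is expressed from the paternal allele, was the member among the 5 rows of the imprinted list, 3 of them higher in the embryo, at 46.0 FPKM against 5.52 FPKM. The list leaves out imprinted genes that the rule drops by symbol, such as IGF2 at 734 against 27.9 FPKM and DLK at 195 against 1.93 FPKM. Of the 7 rows of the other list, 4 were higher in the embryo and 3 were members. The family members among them were ARMCX2 at 7.58 against 1.72 FPKM and MAGEF1 at 3.02 against 0.792 FPKM. CXHXorf64 (PRR32 in RefSeq), at 56.0 against 8.50 FPKM, was placed in the list but is of none of these families. All 3 rows of the armadillo, MAGE and BEX/TCEAL list that were higher in the adult changed direction under both scalings.

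**Figure D2:**
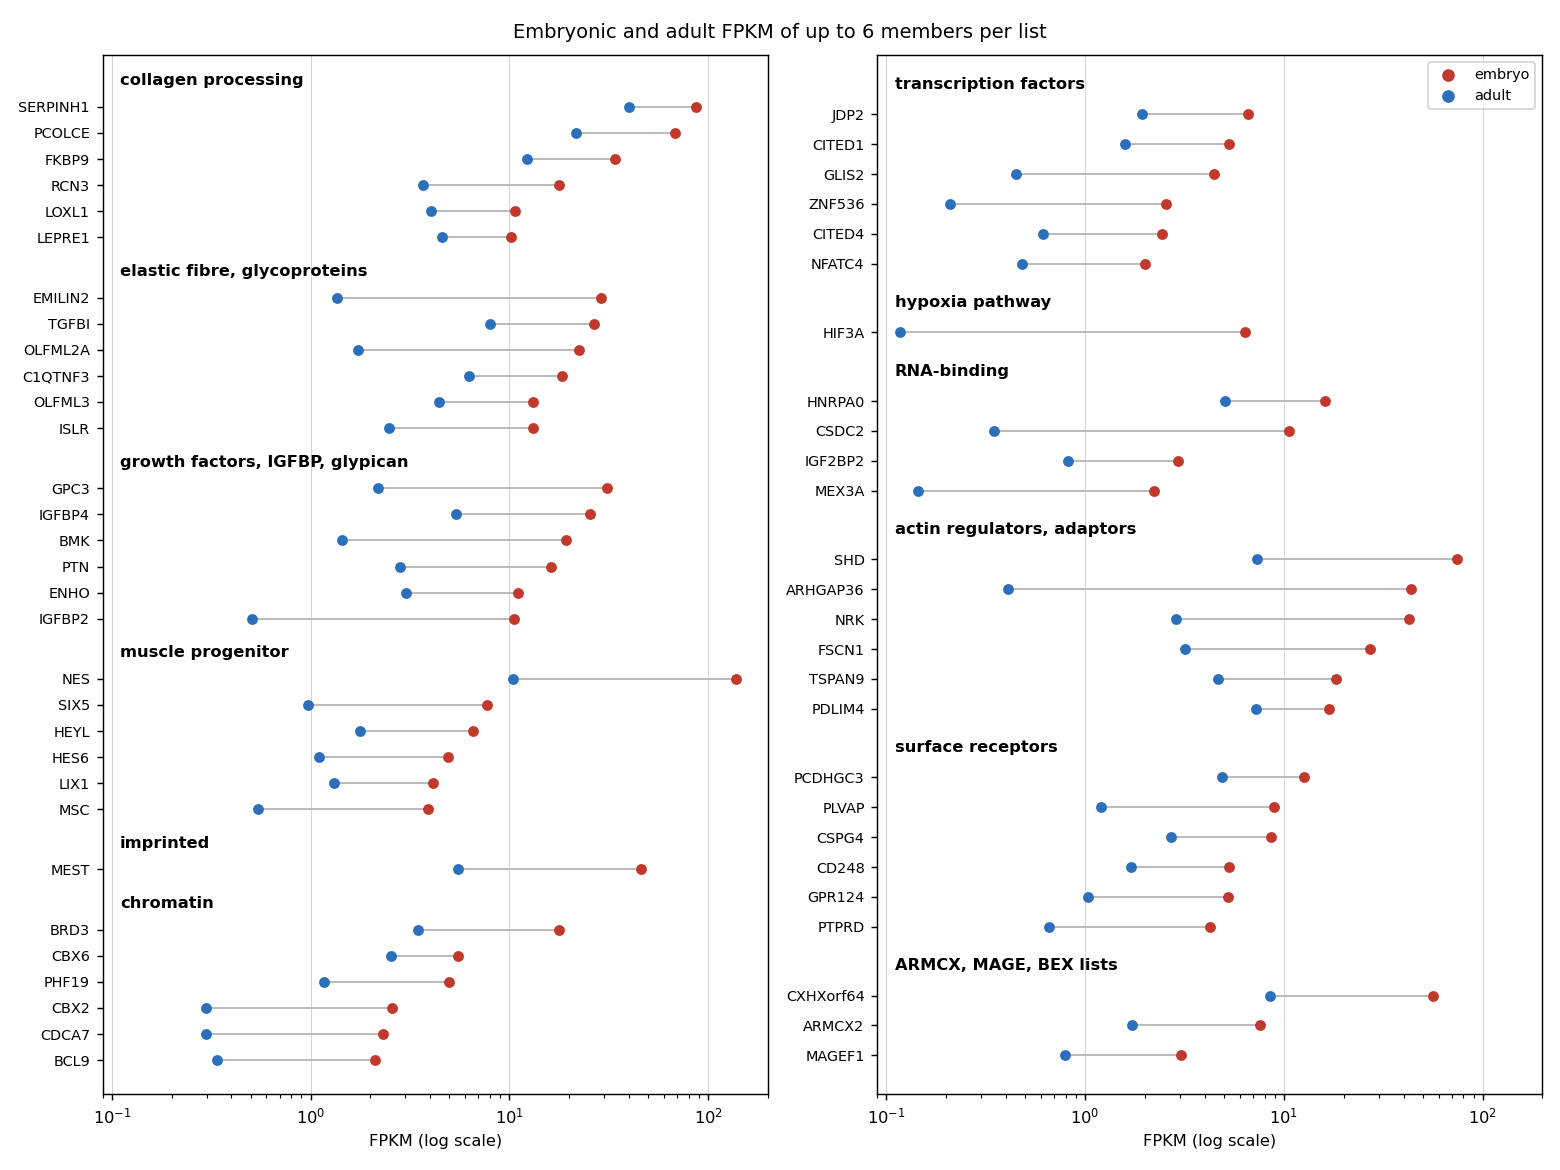
Embryonic (red) and adult (blue) FPKM on a log scale for up to 6 members of each list, taken by embryonic FPKM, with CITED4 drawn among the transcription factors only and 1 value per stage. SERPINH1, PCOLCE, NES and SHD reach the highest embryonic values, and ARHGAP36 and HIF3A have the longest lines.

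Although histone genes with HIST symbols were left out, 10 histone rows remained under the symbol H2B or an Ensembl identifier. They were among the most abundant members, with 27.5% of the embryonic FPKM sum of all members. Embryonic values ran from 9.40 to 149 FPKM and adult values from 2.02 to 38.6 FPKM, with a median log2 ratio of -1.93. ENSBTAG00000031738, described as histone H2A, was at 149 against 29.5 FPKM. ENSBTAG00000031761, described as histone H3.1, was at 116 against 8.43 FPKM, and ENSBTAG00000031762, described as histone H4, at 104 against 29.6 FPKM. ENSBTAG00000031719 has no description and was at 142 against 38.6 FPKM. Of these 10 rows, 8 lay on chromosome 23 and 2 on chromosome 3. Histones package newly made DNA, and the replication-dependent genes are clustered in mammalian genomes.

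The histone values are uncertain because the copies are nearly identical and fragments could be split between them. The H2B symbol stood for 6 rows with 1 Ensembl gene identifier. On chromosome 23, H2B rows were at 148 against 30.2 FPKM, at 55.9 against 18.8 FPKM and at 54.5 against 13.7 FPKM, and a row on chromosome 3 was at 9.40 against 3.70 FPKM. The other 2 H2B rows were higher in the adult and are no members. Of these, the chromosome 23 row was at 29.7 against 93.4 FPKM and changes direction under both scalings. The chromosome 3 row was at 16.6 against 464 FPKM and keeps its direction. An H2B row and ENSBTAG00000031761 also shared the same span, chromosome 23 from 31463429 to 31474479. In the whole table, 33 rows for histones or unnamed genes had a nucleosome GO term. Of the 30 above 0 in both stages, 21 were higher in the embryo and 9 higher in the adult, of which 4 stayed so after ribosomal centring and 1 after equal totals. Without the 10 histone rows the median log2 ratio of the remaining 180 members was -2.00.

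**Figure D3:**
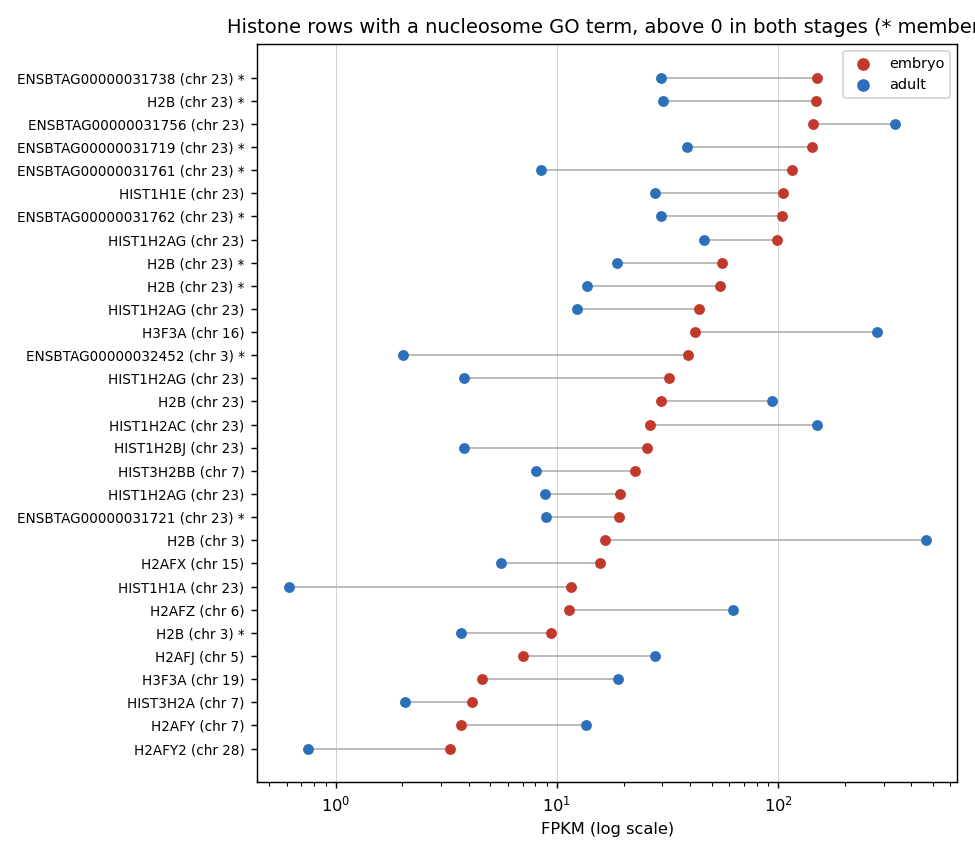
Embryonic (red) and adult (blue) FPKM on a log scale for the 30 histone rows with a nucleosome GO term that were above 0 in both stages, with the chromosome in brackets and a star for the 10 members. For 21 rows the red point lies to the right, and of the 6 rows named H2B 2 have it to the left, of which 1 changes direction under the scalings.

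At 0 FPKM in the adult 5 members were listed, and no fold is given for them. ENSBTAG00000038326 was at 16.0 FPKM in the embryo and MGC157368 at 8.20 FPKM. LIMCH1, a regulator of non-muscle myosin II, was at 6.46 FPKM, MSLN (mesothelin, a surface protein of mesothelium) at 4.23 FPKM, and PRSS35, a protease-like secreted protein, at 2.91 FPKM. The first 2 are neighbours on chromosome 18, from 64202394 to 64211440 and from 64216860 to 64229275. The gap between them is 5419 bp and holds no other row of the table.

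Several members with the widest ratios fell in no list. PTK7, a catalytically inactive receptor kinase of planar cell polarity, was at 17.5 FPKM in the embryo and 0.460 FPKM in the adult, 38.0-fold higher. KCNE1L, an accessory subunit of potassium channels named KCNE5 in RefSeq, was at 6.31 against 0.150 FPKM, or 42.2-fold. CRABP1, which binds retinoic acid in the cytoplasm, was at 6.80 against 0.274 FPKM, or 24.9-fold. SORCS2, a receptor of the sortilin family, was the lowest of them in the embryo, at 2.40 against 0.109 FPKM, or 22.0-fold. The Ensembl identifiers ENSBTAG00000030892 and ENSBTAG00000047411, without a gene name, were at 11.8 against 0.255 FPKM and at 16.8 against 0.628 FPKM. Low adult values carry most of the uncertainty of such ratios. With 1 FPKM added to each value, the ratio of ARHGAP36 becomes 31.6-fold, that of HIF3A 6.62-fold and that of KCNE1L 6.36-fold.

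Of the 190 members, 112 were in none of the 12 lists. FAM213B, a peroxiredoxin-like protein named PRXL2B in RefSeq, was the most abundant of all members with 163 FPKM in the embryo, and had the highest adult value too, 74.4 FPKM. The following examples from the same 112 were chosen after their values were seen. They stand for no theme. SPC24, a kinetochore subunit, was at 4.76 against 1.10 FPKM, and the mitotic kinesin KIFC1 at 2.32 against 0.471 FPKM. DPYSL3, a collapsin response mediator known from neurons, was at 9.41 against 1.24 FPKM, and ST8SIA2, the polysialyltransferase that modifies NCAM1 in embryonic tissue, was at 2.67 against 0.468 FPKM. NCAM1 itself, which has a KEGG entry and is no member, was at 5.43 against 1.36 FPKM. SOX18, a factor of vascular and lymphatic development, was at 8.42 against 3.67 FPKM, and INHA, the inhibin alpha subunit, at 5.18 against 2.28 FPKM.

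For 2 members a second transcript of the same gene had the opposite direction. MYO1C, an unconventional myosin, had a member row at 8.82 FPKM in the embryo and 2.57 FPKM in the adult, and another row at the same span with 2.17 and 7.25 FPKM. NASP, a histone chaperone, had a member row at 3.66 and 0.271 FPKM and another at 3.32 and 7.81 FPKM. For NASP the embryonic levels of the rows were close and the adult levels differed. The rows higher in the adult, 3.34-fold for MYO1C and 2.35-fold for NASP, changed direction under both scalings.

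Within gene families, 17 members were set beside a relative that was higher in the adult as deposited. These pairs were chosen after their values were seen, and they describe how unlike the members of a family can be. In 5 of the 17 pairs the relative kept its direction under both scalings. PCOLCE at 68.6 against 21.7 FPKM stood beside PCOLCE2 at 0.129 against 19.4 FPKM, which was 151-fold higher in the adult. The adult levels of these 2 enhancers were thus similar, while the embryo had almost only PCOLCE. CBX2 stood beside CBX7, which was 22.6-fold higher in the adult with 0.362 against 8.18 FPKM. EMILIN2 stood beside MMRN1 (multimerin), at 0.311 against 3.72 FPKM. ADAMTS4, at 3.36 against 0.864 FPKM, stood beside ADAMTS1, at 0.273 against 3.17 FPKM, and HIF3A beside EPAS1. In 11 pairs the relative changed direction under both scalings, among them IGFBP7 beside IGFBP2, GPC1 beside GPC3 and MFAP5 beside MFAP4. HES1, the relative of HES6, changed only under equal totals.

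**Figure D4:**
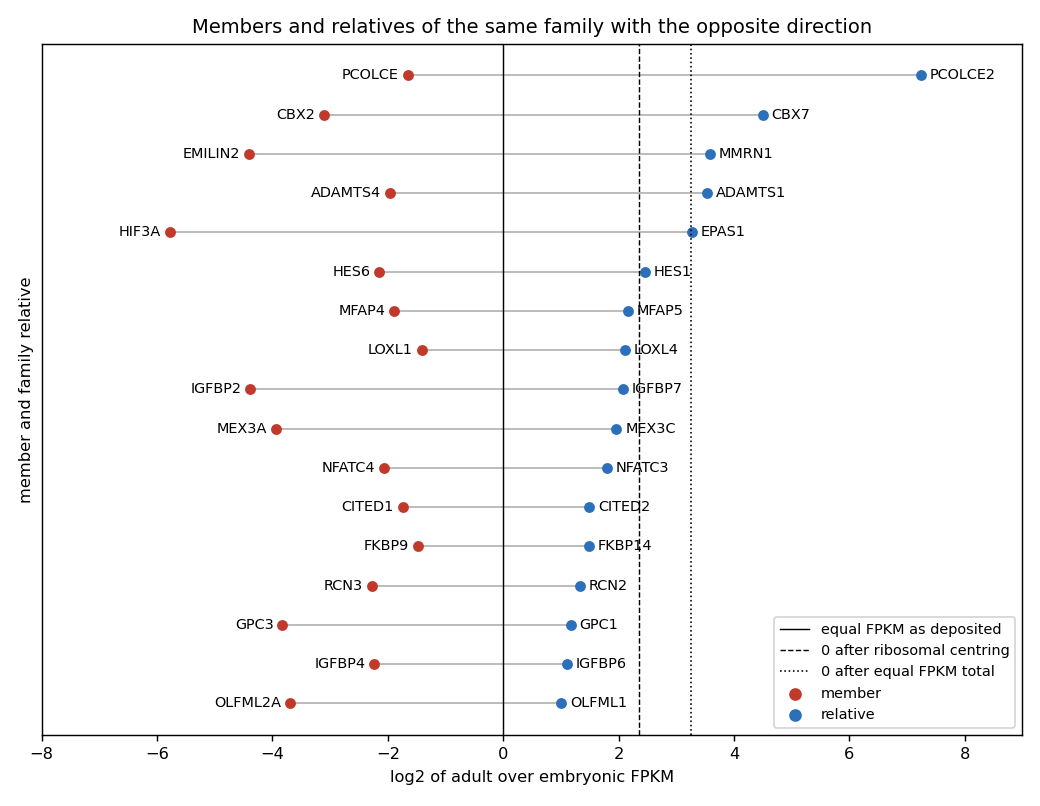
Log2 of adult over embryonic FPKM for 17 members (red) and a relative of the same family (blue), ordered by the relative, with the point of equality as deposited (solid line) and after the 2 scalings (dashed and dotted lines). PCOLCE2, CBX7, MMRN1, ADAMTS1 and EPAS1 lie to the right of all 3 lines, HES1 between the dashed and dotted lines, and the other 11 relatives to the left of both.

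The annotation that the rule did not use differed between sets of rows, and the shares are given without a test. A GO term naming extracellular or basement membrane, exosomes included, was carried by 31 members (16.3%) and by 4.14% of all rows. It was carried by 25.2% of the 103 embryonic rows with a KEGG entry. Among the 3125 rows higher in the adult with an empty KEGG field the share was 2.78%. Only the members were filtered by symbol, so the other sets could keep rows of dropped symbols such as collagens. The 31 include SERPINH1, PCOLCE, EMILIN2, TGFBI and IGFBP4. DNA binding terms were found on 24 members (12.6%) and 6.90% of all rows, and 10 of the 24 were histone rows. The embryonic rows with a KEGG entry had a similar share, 11.7%. A mitochondrion term was carried by 5 members (2.63%), against 13.7% of the adult rows without KEGG and 14.5% of all rows. The share was also low, 4.85%, in the embryonic rows with a KEGG entry. No member had a term for ribosome or translation, a share that was 4.92% of all rows. None of the 103 embryonic rows with a KEGG entry had one either, so neither low share is particular to the members. Terms for the nucleus were similar in members (22.1%) and all rows (25.6%). In 27 members (14.2%) there was no GO term at all, against 8.11% of all rows, and 18 members had an Ensembl identifier as their only symbol.

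**Figure D5:**
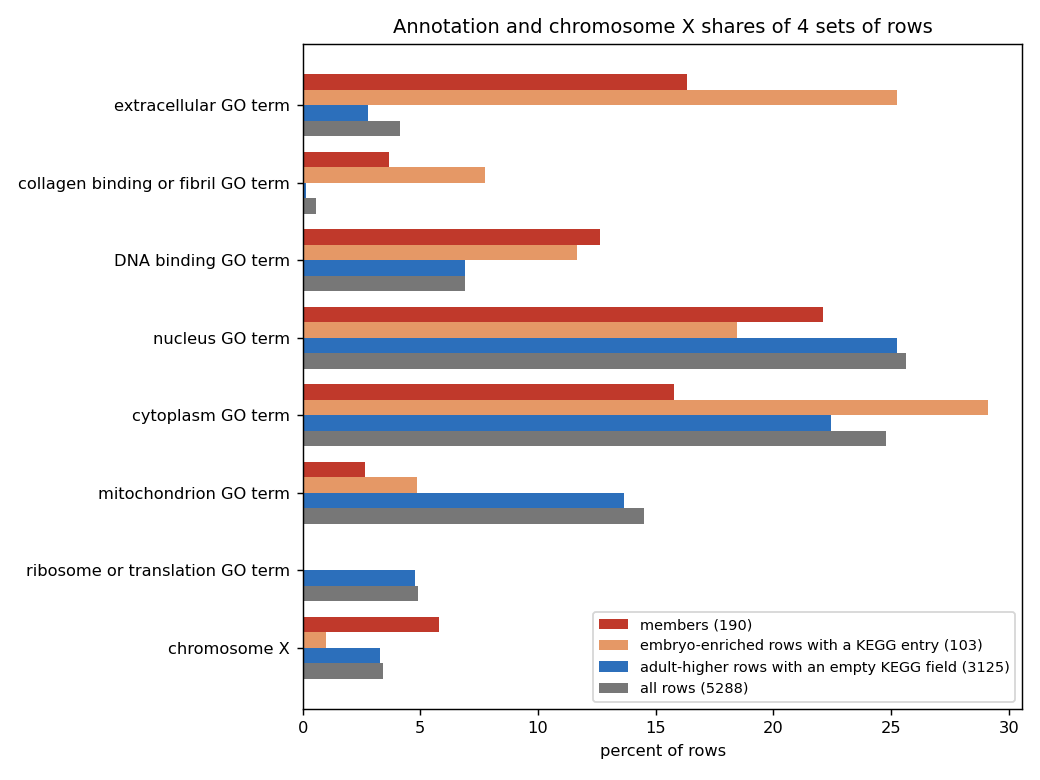
Percent of rows with a GO term of each kind, or on chromosome X, for the 190 members (red), 103 embryonic rows with a KEGG entry (orange), 3125 adult-higher rows with an empty KEGG field (blue) and all 5288 rows (grey). Extracellular terms are at 16.3% of members and 4.14% of all rows, and mitochondrion terms at 2.63% and 14.5%. In the embryonic rows with a KEGG entry these 2 terms are at 25.2% and 4.85%. Only the members were filtered by symbol.

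On chromosome X there were 11 members (5.79%), against 1 of the 103 embryonic rows with a KEGG entry and 180 of all rows (3.40%). Of the 180 rows, 22 (12.2%) were at least 2 times higher in the embryo, beside the 9.68% of all rows. The 11 members had a median log2 ratio of -3.34 and lay between 3.21 and 56.0 FPKM in the embryo. They included CXHXorf64, ARHGAP36, NRK and GPC3, all over 30 FPKM in the embryo. MXRA5, a matrix-remodelling protein with leucine-rich repeats, was at 7.91 against 0.782 FPKM, and KAL1, which encodes the secreted anosmin, at 4.76 against 0.841 FPKM. WWC3, a WW and C2 domain protein of the Hippo pathway, was at 3.21 against 0.758 FPKM. These 11 loci are spread over the chromosome, from CXHXorf64 at 10981500 to KAL1, which ends at 145574209.

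Some members lay close to each other. Less than 200 kb apart, or on the same span, were 18 pairs of adjacent members with different symbols, which involved 31 members. Of these pairs, 12 held no histone row. No such count was made for other rows, so whether members lie closer than other rows was not tested. In 10 of the 18 pairs no other row of the table lay between. ISLR and LOXL1, both matrix genes, are 150789 bp apart on chromosome 21 with no row between them. SORCS2 and AFAP1, an actin filament-associated protein, are 10377 bp apart on chromosome 6. GLIS2 and VASN, a TGF-beta-binding membrane protein, are 9312 bp apart on chromosome 25, and HIF3A and CCDC8 are 101554 bp apart on chromosome 18 with 2 other rows between. Chromosome 23 held 14 members, 8 of them the histone rows.

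The thresholds cut through a continuous range of values. Just above the embryonic minimum of 2 FPKM were NFATC4 at 2.01, CENPM at 2.06 and ASF1B at 2.08 FPKM, and just below it OSR1 at 1.94, FEZ1 and LGI2 at 1.99 FPKM. Nearest to the 2-fold limit were TAGLN3 (2.04-fold), PTMS (2.06-fold) and BCAS4 (2.08-fold). The table held no row between 2-fold in the embryo and 2-fold in the adult. The next rows outside were therefore OLFML1, TMEM115 and RAB35, each about 2-fold higher in the adult as deposited and higher in the embryo under both scalings.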

How the data were processed

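Longissimus muscle RNA of 3 embryos and 3 adults was sequenced after ribosomal RNA depletion. The authors trimmed reads with Trim Galore, aligned them to bosTau7 with TopHat2 2.0.14, and assembled and quantified transcripts with Cufflinks. The deposited FPKM values are 1 per stage for each transcript the authors called different, without replicates, and rows the authors did not call were not used here. Depth per value is unknown, and unlisted genes cannot be read as unchanged or absent. Stage columns were assigned as the paper pairs them. The authors' fold changes, p-values, q-values and GO enrichment tables were not used.

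Members, ratios, list counts and shares were computed from the 2 FPKM values and the KEGG, GO and locus fields with Python 3.11.15 and pandas 2.3.3, with no pseudocount unless stated. On simulated FPKM values for 5288 rows, the selection returned the 200 rows made higher in the embryo and 0 others. All simulated rows had an empty KEGG field, a kept symbol and an embryonic value above the minimum, so only the fold limit was exercised. RefSeq (ARS-UCD2.0) supplied names for 169 of the 190 members by accession, symbol or synonym, and none of its coordinates. No test between the stages was run, because each stage has 1 value.

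The members, lists and marker lists were chosen with earlier results of these data known. Named genes were the 3 markers, the 12 highest embryonic levels, the 12 widest ratios, members at 0 in the adult, up to 6 members per list by embryonic FPKM, members on chromosome X, and 3 rows on each side of each threshold. Other names (family relatives, neighbours, second transcripts, further list rows and examples from no list) were chosen after their values were seen, apart from the marker lists. Alternatives were other minima, pseudocounts of 1 and 0.1, scaling to equal totals or ribosomal protein rows, distinct symbols, and leaving out histone rows.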

Additional observations from a re-analysis of the deposited data

How the results depend on the processing

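The number of members was 190 and moved with the thresholds and the scaling. It was 111 with an embryonic minimum of 5 FPKM, 339 with none, and 98 with a 4-fold limit. Scaling to equal FPKM totals gave 682 members and centring on ribosomal protein rows 317. The median log2 ratio of -2.00 was -1.41 with a pseudocount of 1, -2.97 with the 4-fold limit, -5.25 with equal totals and -4.35 with ribosomal centring. With a pseudocount of 1, 27 members fell under 2-fold and 163 did not. The share of members on chromosome X was 5.79%, and 10.2% with the 4-fold limit. A minimum of 1 FPKM, distinct symbols, the kept symbols and a pseudocount of 0.1 moved the number or the median by less than 1.5 times, and so did leaving out the histone rows, an alternative chosen after seeing the data. The extracellular share stayed between 14.3% and 21.6%, and the mitochondrion share was 3.07% of members with a GO term. No member can change direction under a pseudocount or the 2 scalings, by construction. No paired analysis was possible because the table gives 1 value per stage. The promoter GC alternatives were not run, since no promoter sequences were used here. The fragments behind each value are unknown, so low adult values limit the ratios most.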
